A study of Mus musculus with 4 samples.

Results

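Natural killer (NK) cells were examined among the single-cell transcriptomes of 4 mouse heart grafts collected 5 days after heterotopic transplantation. A cell was counted as an NK cell when it had over 200 detected genes and under 20% mitochondrial transcripts, at least 1 unique molecular identifier (UMI, 1 counted transcript molecule) of Ncr1 and of Nkg7, none of Cd3d, Cd3e, Cd3g and Cdh5, and under 10 of Lyz2. These conditions selected 200 cells of the 44626 left by the limits on genes and mitochondrial transcripts (called kept cells below), out of 53824 deposited. The allogeneic group held 2 BALB/c hearts placed in C57BL/6J recipients, and the syngeneic group held 2 C57BL/6J hearts placed in C57BL/6J recipients; all mice were male and 8 to 10 weeks old. Donor-derived and recipient-derived cells were not told apart. The counts stand in 1 merged matrix in which a barcode suffix from 1 to 4 separates 4 libraries, and no source used here pairs a suffix with a graft. All cells therefore count as 1 sample, allogeneic and syngeneic grafts could not be compared, and the libraries are shown side by side with no test and no p-value. Their totals were 96020294, 115162601, 138892048 and 166079145 UMIs. Intervals are exact 95% intervals (Poisson for levels, Clopper-Pearson for shares of cells) and cover counting error only.

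NK cells are innate lymphocytes that kill target cells with perforin and granzymes and release cytokines and chemokines without a rearranged antigen receptor. Their action is set by the balance between activating receptors, such as NKp46 (encoded by Ncr1) and NKG2D (Klrk1), and inhibitory receptors that recognise MHC class I, which in mice include the Ly49 family encoded by the Klra genes. In organ grafts they are known for reacting to cells that lack the recipient's own MHC class I molecules.

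The cells were selected on measured values of Ncr1 and Nkg7, so the levels of these genes are a description only. The label was checked with 5 NK genes that the selection did not use: Klrb1c (NK1.1), Klrd1 (CD94), Klre1, Klrk1 and the transcription factor Eomes. Of the 200 cells, 178 had a UMI of at least 4 of these genes, and 117 had all 5. The 6 cells with at most 1 of them were all in library 4. Of the markers given with the label, Gzma had a UMI in 186 of the 200 cells and Klrb1a in 38.0%. The selection left 53 cells with a single Ncr1 UMI, of which 43 had at least 4 of the 5 genes, whereas among 578 cells that met every other condition but had no Ncr1 UMI 45 did. Depth differed with them, at a median of 7599 UMIs in the 53 cells and 3033.5 in the 578, of which 513 were in library 4, where 21.4% of endothelial cells had an Nkg7 UMI.

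The DNA upstream of the genes the results turn on is shown for Ncr1, which defined the cells, and for the cytotoxic genes Gzma, Gzmb and Prf1, all 3 of which had their highest level in the NK cells of the same library. Each stretch holds the 250 bases before the RefSeq transcription start (GRCm38.p6), 5′ to 3′ on the gene's strand. Capitals mark TGTGGT, the core recognised by RUNX factors, and AGGTGT, part of the site of T-box factors such as Eomes and T-bet, on either strand, so that a match on the opposite strand reads ACCACA or ACACCT. These matches do not overlap in the 4 stretches. TGTGGT was present in 14.05% and AGGTGT in 11.8% of all 32851 RefSeq upstream stretches of this length, and a match is a description and not a binding site.
Ncr1, chr7:4337465-4337714, plus strand: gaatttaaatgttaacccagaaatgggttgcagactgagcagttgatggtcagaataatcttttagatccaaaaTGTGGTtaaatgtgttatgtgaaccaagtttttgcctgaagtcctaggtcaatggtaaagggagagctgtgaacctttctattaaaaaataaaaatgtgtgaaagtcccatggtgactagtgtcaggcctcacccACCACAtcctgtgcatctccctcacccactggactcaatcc
Gzma, chr13:113100982-113101231, minus strand: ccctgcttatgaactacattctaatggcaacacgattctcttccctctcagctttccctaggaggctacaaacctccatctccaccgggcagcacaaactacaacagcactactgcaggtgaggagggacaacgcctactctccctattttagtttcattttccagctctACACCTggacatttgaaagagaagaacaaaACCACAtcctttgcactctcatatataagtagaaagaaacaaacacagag
Gzmb, chr14:56262335-56262584, minus strand: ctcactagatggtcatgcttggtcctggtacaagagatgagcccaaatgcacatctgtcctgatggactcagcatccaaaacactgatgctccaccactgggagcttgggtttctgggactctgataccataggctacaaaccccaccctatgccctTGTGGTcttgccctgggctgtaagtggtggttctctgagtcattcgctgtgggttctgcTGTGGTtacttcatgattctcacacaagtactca
Prf1, chr10:61297586-61297835, plus strand: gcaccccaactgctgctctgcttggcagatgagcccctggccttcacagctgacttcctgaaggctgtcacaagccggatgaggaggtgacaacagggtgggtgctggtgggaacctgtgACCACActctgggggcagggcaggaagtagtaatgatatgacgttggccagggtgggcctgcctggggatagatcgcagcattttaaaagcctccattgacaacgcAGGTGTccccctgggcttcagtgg
TGTGGT occurred 2 times upstream of Ncr1, at 176 and 41 bases before the start counted to its first base on the shown strand, and 2 times upstream of Gzmb, at 93 and 34 bases. It occurred 1 time upstream of Gzma, at 50 bases, and 1 time upstream of Prf1, at 130 bases. AGGTGT occurred 1 time upstream of Gzma, at 80 bases, and 1 time upstream of Prf1, at 24 bases, and was not in the stretches of Ncr1 and Gzmb.

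The libraries differed in how many NK cells they held. There were 42 in library 1, 0 in library 2, 21 in library 3 and 137 in library 4. As a share of kept cells this was 0.407% (interval 0.293% to 0.550%) in library 1, 0.213% (0.132% to 0.326%) in library 3 and 1.21% (1.02% to 1.43%) in library 4. None of the 13154 kept cells of library 2 qualified, which allows a share of up to 0.0228% by the limit of 3 counts and up to 0.0280% by the exact interval. Set against kept cells with a UMI of Ptprc (CD45, a leukocyte gene), the order was different: 3.66% (2.65% to 4.91%) in library 1, 0.961% (0.596% to 1.47%) in library 3 and 1.44% (1.21% to 1.70%) in library 4. Library 4 thus held the largest share of all kept cells and library 1 the largest share of Ptprc-positive cells. A Ptprc UMI does not make a cell a leukocyte: of kept cells with at least 2 UMIs of the endothelial gene Cdh5, 4.34% in library 1, 9.25% in library 3 and 40.1% in library 4 had one, at median depths of 6088.5, 8649 and 12370.0 UMIs. Against cells with at least 5 Ptprc UMIs the share was 7.71% (5.59% to 10.3%) in library 1, 2.46% (1.51% to 3.78%) in library 3 and 1.81% (1.505% to 2.16%) in library 4, so that library 1 stayed highest and the order of libraries 3 and 4 turned, with overlapping intervals. The NK cells had a median of 8893.5 UMIs in library 1, 7481 in library 3 and 10037 in library 4, and over all libraries ranged from 650 to 63292. No barcode of an NK cell recurred in another library, while 308 barcodes did so among all deposited cells.

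**Figure D1:**
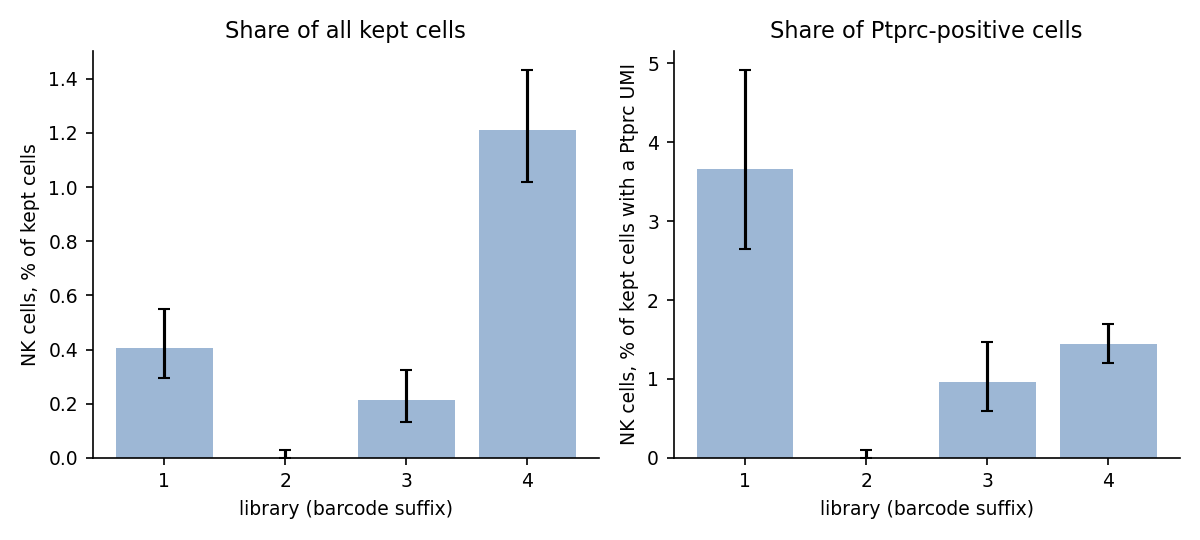
Share of NK cells in each of the 4 libraries, as % of kept cells (left) and as % of kept cells with a Ptprc UMI (right); bars are shares and lines are exact 95% binomial intervals for counting error. Library 4 is highest on the left at 1.21%, library 1 is highest on the right at 3.66%, and library 2 has none.

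The edge of the selection ran through a group of similar cells. Of 398 kept cells with a UMI of Ncr1 and Nkg7, 149 had a Cd3 UMI, 40 had a Cdh5 UMI and 35 had at least 10 Lyz2 UMIs. Exactly 1 Cd3 UMI was the sole reason for leaving out 72 cells, 62 of them in library 4, and 66 of the 72 had at least 4 of the 5 other NK genes. Their level of Klrb1c was 245 CPM (UMIs of a gene per 1000000 non-mitochondrial UMIs of the same cells) against 315 CPM in the selected cells, and their level of Trac, the T cell receptor alpha constant region, was 26.2 CPM against 27.1 CPM. Cells left out for 2 to 5 Cd3 UMIs were like them, with 22 of 23 carrying at least 4 NK genes and Trac at 12.5 CPM. Those with over 5 Cd3 UMIs differed in T cell genes, since their 29 cells had Trac at 361 CPM and Cd8a at 149 CPM. They carried NK genes too, with at least 4 of the 5 in 24 of the 29 and Klrb1c at 169 CPM. At the other edge, all 36 selected cells with 5 to 9 Lyz2 UMIs were in library 4, and 4 cells just outside the limit had 10 to 14.

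Transcripts of T cells were compared in CD8 T cells, defined as kept cells with at least 2 UMIs of the Cd3 genes, a UMI of Cd8a, none of Ncr1, Trdc and Cdh5 and under 10 of Lyz2. There were 595 of these, 537 of them in library 4, 23 in library 3, 19 in library 2 and 16 in library 1. Of 9480 genes with at least 50 UMIs over both sets, 973 (10.3%) were at least 2-fold higher in NK cells and 826 (8.71%) at least 2-fold lower, with a median log2 ratio of -0.00 over all of these genes. Within library 4, the library with most cells of both kinds, 864 of 9261 genes (9.33%) were at least 2-fold higher and 943 (10.2%) lower, with a median log2 ratio of -0.04. The values named below come from library 4 unless said otherwise, because the CD8 T cells of the other libraries were few and carried little of the effector transcripts.

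Activating receptors set the NK cells apart. Ncr1 was left out of the count, because the NK cells were selected on it and the CD8 T cells were defined without it. Of the 10 other receptors on the list, 7 were at least 2-fold higher and 1 lower over all cells, with a median log2 ratio of 1.78; within library 4 there were 7 higher and 2 lower, with a median of 1.75. Klrb1c, the NK1.1 receptor (GRCm38 chr6:128778485-128789215), was at 323 CPM in library 1, 470 CPM in library 3 and 295 CPM in library 4. The CD8 T cells of library 4 had 1.68 CPM of it, a log2 ratio of 7.46 (interval 6.80 to 8.20). With 10 CPM added to both, its level was 1.57 times as high in library 3 as in library 4. In all 3 libraries it was far above that in CD8 T cells. Klrk1, encoding NKG2D, was at 677, 626 and 576 CPM in libraries 1, 3 and 4 against 147 CPM in CD8 T cells, and Cd244 (2B4) at 134, 151 and 101 CPM against 6.11 CPM. The 2 receptors that were lower within library 4 were Cd226 (DNAM-1), at 18.4 CPM against 40.5 CPM, and Crtam, at 25.3 CPM against 144 CPM.

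Some activating receptors signal through adaptors with an ITAM motif, and of these Tyrobp and Fcer1g were high as well. Cd247, another such adaptor, was not, at 111 CPM in NK cells against 138 CPM in CD8 T cells of library 4. Tyrobp (DAP12) was at 2279.9 CPM in library 1, 2093 CPM in library 3 and 2025 CPM in library 4, against 83.3 CPM in CD8 T cells, a log2 ratio of 4.60 (4.50 to 4.71). Fcer1g, the Fc receptor gamma chain, was at 1954, 2226 and 2074 CPM against 133 CPM. The endothelial cells of library 4 (at least 2 Cdh5 UMIs and no Ptprc UMI), which should lack both, had 88.5 CPM of Tyrobp and 134 CPM of Fcer1g, so the CD8 T cells were no higher than cells that lack them. Of 10 adaptors and kinases compared, 6 were at least 2-fold higher over all cells and 2 lower, with a median of 1.22. The shares over all genes were 10.3% higher and 8.71% lower. The kinase pair differed in opposite ways, with Syk at 66.5 CPM against 5.57 CPM and Zap70 at 76.0 CPM against 187 CPM, and Lat, the scaffold of the T cell receptor, was at 33.6 CPM against 443 CPM.

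Among inhibitory receptors, some were higher and some lower than in CD8 T cells. Klrd1, the partner chain of the NKG2 receptors, was at 670, 736 and 871 CPM in libraries 1, 3 and 4 against 229 CPM in CD8 T cells. Klre1 was at 623, 493 and 659 CPM against 21.9 CPM. Klrc1 (NKG2A) was at 262, 330 and 167 CPM against 214 CPM, with a log2 ratio of -0.36 (-0.55 to -0.18) within library 4. Klrg1, a receptor of mature NK cells, was detected in 45.2% of NK cells in library 1, 19.05% in library 3 and 35.0% in library 4. By contrast the checkpoint receptors were low: Pdcd1 (PD-1) was at 17.7 CPM against 252 CPM, Lag3 at 48.8 CPM against 234 CPM and Havcr2 (TIM-3) at 6.33 CPM against 87.2 CPM. In all, 4 of 10 compared genes of this list were at least 2-fold higher over all cells and 3 lower. Their median log2 ratio was 0.57, and the shares over all genes were 10.3% higher and 8.71% lower.

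Ly49 receptors were far higher in NK cells than in CD8 T cells, with 7 of 8 compared genes at least 2-fold higher over all cells, none lower and a median log2 ratio of 5.19. Among all genes 10.3% were higher and 8.71% lower. Klra4 (Ly49D) was at 286 CPM in library 1, 615 CPM in library 3 and 593 CPM in library 4, against 1.33 CPM in CD8 T cells. Klra8 (Ly49H), an activating receptor known for recognising a cytomegalovirus protein, was at 286, 220 and 318 CPM against 0.265 CPM, which rests on 3 UMIs (log2 ratio 10.23, interval 8.67 to 12.51). Klra7 (Ly49G) was at 430, 267 and 302 CPM and Klra9 at 243, 249 and 235 CPM. Klra6 was the compared member without a 2-fold difference, at 7.60 CPM against 6.19 CPM within library 4.

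Single NK cells differed in which Ly49 genes they carried. Cells of BALB/c and of C57BL/6J origin were not told apart, so strain cannot be separated from differences between cells here. Of the 200 cells, 29 had no UMI of any of the 9 genes, 25 had 1, 37 had 2, 47 had 3, and the rest had more, up to 6. The median was 3 genes in libraries 1 and 4 and 2 in library 3. Depth bears on these numbers: with each cell thinned at random to 1000 UMIs, 61 of 198 cells had none, 64 had 1 and 73 had at least 2. No Ly49 gene was present in all cells, and the one found most often, Klra8, was in 102 of 200. Klra8 was found in 74.0% of the 96 cells with Klra4 and in 29.8% of the 104 without it, at median depths of 9637 and 9155 UMIs; Klra7 was found in 57.3% and 44.2% of the same cells. Reads of near-identical members can be split or lost: of 50-base windows in the last 500 bases of the longest coding transcript (GENCODE M21), 29.3% of those of Klra3 recurred in Klra9 and 13.1% of those of Klra8 in Klra9, while none of Klra4 recurred in Klra8, and the values of Klra3, Klra9 and Klra10 are uncertain for this reason.

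**Figure D2:**
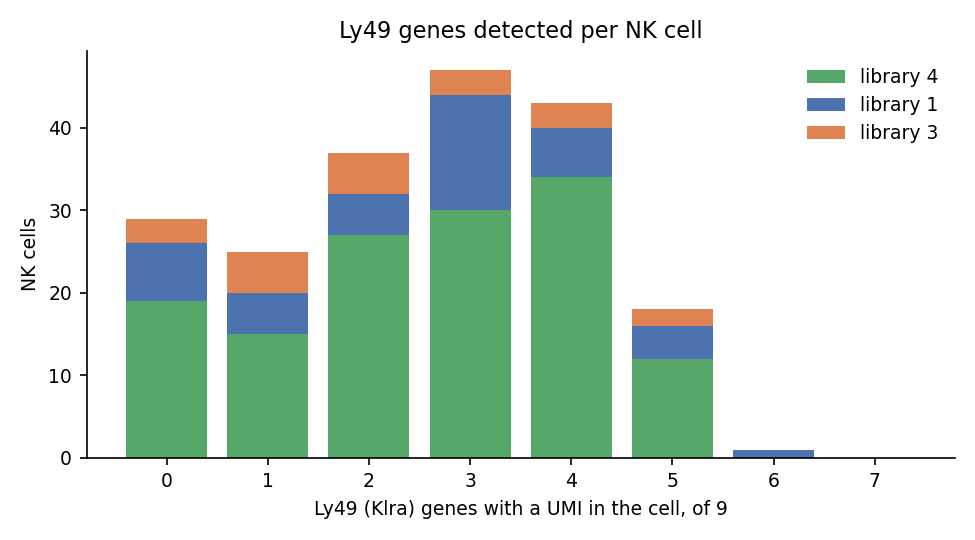
Number of the 9 Ly49 (Klra) genes with at least 1 UMI in a cell (horizontal axis) against the number of NK cells (vertical axis), with bars stacked by library. Most cells carry between 1 and 4 of the genes, 29 carry none and no cell carries more than 6.

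Among cytotoxic granule genes, the main granzymes and perforin differed in level between the NK cells of the libraries. Gzma, encoding granzyme A (GRCm38 chr13:113093825-113100981), was at 5647 CPM (interval 5432 to 5868) in library 1, 2962 CPM (2711 to 3231) in library 3 and 14475 CPM (14288 to 14664) in library 4. Gzmb, encoding granzyme B, was at 1187, 1084 and 3628 CPM in the same order, and Prf1, encoding perforin, at 618, 655 and 1459 CPM. Library 4 was highest in all 3, and its counting intervals did not overlap those of the other libraries. In single cells the median was 34.1 Gzma UMIs per 10000 in library 1, 15.8 in library 3 and 127 in library 4, and 85.7%, 81.0% and 97.1% of the cells had a UMI. Single cells carried much of the signal in library 3, where 1 cell held 72.7% of the Gzmb UMIs; without it Gzmb was at 331 CPM (246 to 435). The other kept cells of library 4 also had more Gzma, at 311 CPM against 31.6 CPM in library 1 and 5.73 CPM in library 3, and the endothelial cells of library 4 had 25.7 CPM in 26.2% of cells, far below the NK cells.

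Other granule genes did not all follow. Srgn, the proteoglycan core of the granule, was at 1024, 1159.5 and 1402 CPM, and Ctsw (cathepsin W) at 829, 829 and 538 CPM in libraries 1, 3 and 4. Ctsw was thus lowest where Gzma was highest. Nkg7, on which the cells were selected, was at 2096, 2638 and 2687 CPM. Gzmc was at 256, 69.6 and 630 CPM but was found in 32.8% of the NK cells of library 4 and 19.05% of those of libraries 1 and 3, so its level rested on fewer cells. Of the 11 granule genes other than Nkg7 with at least 50 UMIs in NK cells, 8 were highest in library 4, where 33.6% of all 5269 such genes were highest.

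Against the CD8 T cells of the same library, granzyme A and granzyme B went opposite ways. In library 4 Gzma was at 14475 CPM in NK cells and 1119 CPM in CD8 T cells (log2 ratio 3.69, interval 3.66 to 3.72), whereas Gzmb was at 3628 CPM and 6337 CPM (-0.80, -0.84 to -0.77). Prf1 was higher in NK cells at 1459 CPM against 765 CPM, short of 2-fold, and the pooled log2 ratio of 0.71 became 4.10 without library 4. The pooled log2 ratio of Gzma, 3.43, became 6.65 without library 4. In library 3 both granzymes were higher in the NK cells, with Gzma at 2962 CPM against 117 CPM and Gzmb at 1084 CPM against 299.8 CPM, although without the 1 cell named above the NK level of Gzmb was 331 CPM. Library 1 was like it, with Gzmb at 1187 CPM in NK cells and 129 CPM in its 16 CD8 T cells. The direction for Gzmb therefore turned with the library, and the pooled log2 ratio of -1.08 became 2.81 without library 4, as that of Xcl1 turned from -1.25 to 4.01. The pooled log2 ratio of Ifng went from -3.65 to 0.54, but within library 3 Ifng was lower in the NK cells than in the CD8 T cells, as given below.

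**Figure D3:**
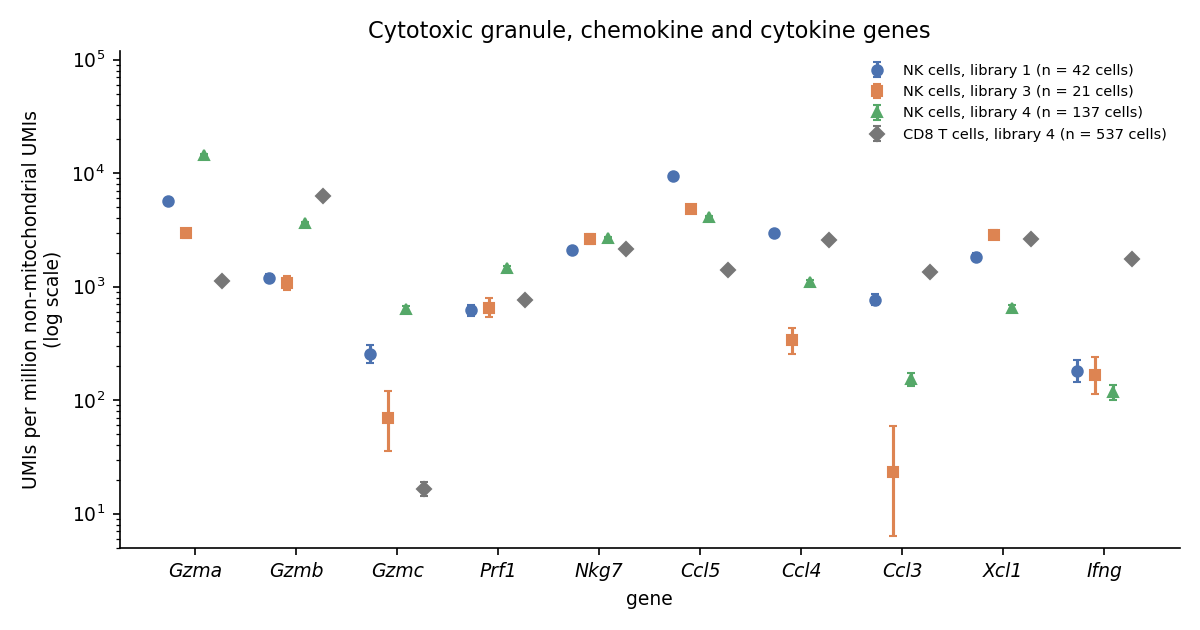
Levels of 10 effector genes (UMIs per 1000000 non-mitochondrial UMIs, log scale) in the NK cells of libraries 1, 3 and 4 and in the CD8 T cells of library 4; points are pooled levels and lines exact 95% Poisson intervals for counting error. Gzma, Gzmb and Prf1 are highest among NK cells in library 4, Ccl5 and Ccl4 in library 1, and Ifng is below 200 CPM in the NK cells of all 3 libraries against 1738 CPM in CD8 T cells.

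Cytokine and chemokine genes had another order. Ccl5, a chemokine that attracts T cells and macrophages, was at 9490.5 CPM (interval 9211 to 9776) in library 1, 4841 CPM (4518 to 5181) in library 3 and 4103 CPM (4004 to 4204) in library 4. Ccl4 was at 2959, 336 and 1101 CPM and Ccl3 at 770, 23.2 and 153 CPM, and in library 1 the 2 highest cells held 46.3% of the Ccl4 UMIs and 58.9% of the Ccl3 UMIs. Xcl1, the ligand of XCR1 on cross-presenting dendritic cells, was at 1844 CPM in library 1, 2869.7 CPM in library 3 and 655 CPM in library 4. Library 4, highest for Gzma, Gzmb and Prf1, was thus lowest for Ccl5 and Xcl1. In library 3, 1 cell held 43.2% of the Xcl1 UMIs.

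Ifng (GRCm38 chr10:118441046-118445892), the main cytokine through which NK cells activate macrophages, was low beside CD8 T cells of library 4. It was at 182 CPM (145 to 226) in library 1, 168 CPM (113 to 241) in library 3 and 117 CPM (101 to 135) in library 4, with a UMI in 40.5%, 19.05% and 43.8% of cells. The CD8 T cells of library 4 had 1738 CPM, a log2 ratio of -3.89 (-4.11 to -3.68). In library 3 a single NK cell held 75.9% of the Ifng UMIs, and without it the level there was 41.9 CPM (16.9 to 86.4), against 256 CPM (178 to 356) in the CD8 T cells of that library. Among all genes 8.71% were at least 2-fold lower over all cells and 10.3% higher. Of 7 compared cytokine and chemokine genes, 4 were at least 2-fold lower over all cells and 1 higher, with a median log2 ratio of -1.25. The one higher was Ccl5, at 4103 CPM against 1403 CPM within library 4; its pooled log2 ratio of 1.80 was 0.59 without library 4, short of 2-fold. Among death ligands, Fasl was at 152, 186 and 115 CPM in libraries 1, 3 and 4 against 48.0 CPM in CD8 T cells, and Tnfsf10 (TRAIL) at 32.5, 58.0 and 25.3 CPM against 23.5 CPM.

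**Figure D4:**
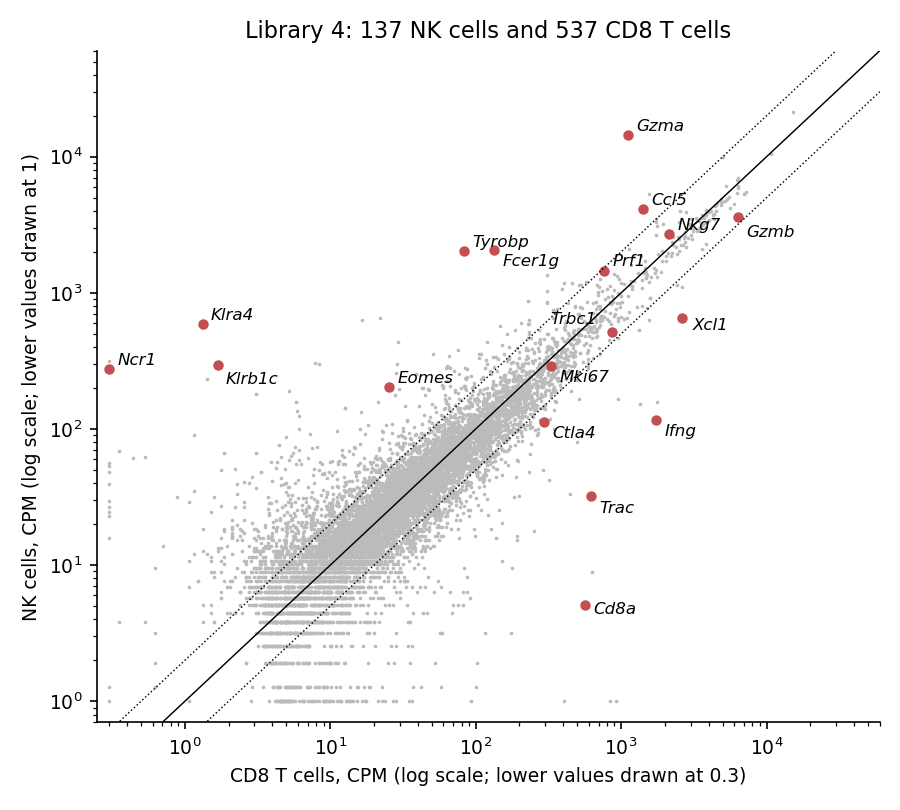
Level of each gene in the NK cells (vertical axis) against the CD8 T cells (horizontal axis) of library 4, both in CPM on log scales with lower values drawn at the edge, and with equality as a solid line and 2-fold as dotted lines. Gzma, Tyrobp, Klra4 and Klrb1c lie above the lines, and Ifng, Xcl1, Trac and Cd8a below.

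The 15 genes with the highest ratio of NK cells over CD8 T cells in the pooled comparison with the same direction in libraries 3 and 4 included, beside Ncr1, the Klra and Klrb1 receptors, the adaptor genes Clnk and Sh2d1b1 (EAT-2), the kinase gene Styk1 and the sulfatase gene Sulf2. Sulf2 was at 78.6 CPM against 0.688 CPM and Khdc1a at 60.1 CPM against 0.0860 CPM, which rests on 1 UMI. Trdc, the delta constant region of the T cell receptor, was among them because the CD8 T cells were defined without it; it was found in 35.7%, 33.3% and 39.4% of NK cells in libraries 1, 3 and 4, at 56.4, 75.4 and 56.3 CPM. The 15 lowest were led by the Cd3 genes, which the selection set to 0, and included Cd8a, Cd8b1, Cd5, Cd6 and Themis, all genes of T cell receptor signalling or selection. Themis had no UMI in the NK cells and 1074 in the CD8 T cells.

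Trbc1, a constant region gene of the T cell receptor beta chain, was an exception to the low T cell genes. Cd8a and Trdc were left out of the count, because the CD8 T cells were defined by them. Of 9 other compared T cell genes 8 were at least 2-fold lower in NK cells over all cells, beside 8.71% of all genes. Their median log2 ratio was -4.51. Trbc1 was the remaining one, at 620 CPM in library 1, 644 CPM in library 3 and 512 CPM in library 4 against 870 CPM in CD8 T cells (log2 ratio -0.77, -0.87 to -0.66). It was found in 95.2%, 95.2% and 89.8% of the NK cells, whereas the endothelial cells of library 4 had 8.94 CPM. Trbc2 was at 158 CPM against 1759.7 CPM in library 4. Trbc1 was thus within 2-fold of its level in T cells, in cells with next to no Trac, Cd8a or Cd5.

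Receptors for cytokines followed the NK program in part. Il2rb, the chain shared by the receptors for interleukin-2 and interleukin-15, was at 1124, 1148 and 1068 CPM in libraries 1, 3 and 4 against 393 CPM in CD8 T cells. Il2ra, the high-affinity chain of activated T cells, was at 6.51, 5.80 and 9.50 CPM against 178 CPM. Il18rap was at 124, 116 and 116 CPM against 33.7 CPM, and Ifngr1 at 698, 794 and 849 CPM against 311 CPM. The 3 libraries were close to one another for Il2rb, Il18rap and Ifngr1, while Il2ra rested on few UMIs in libraries 1 and 3. Of 14 compared receptors 7 were at least 2-fold higher than in CD8 T cells over all cells and 2 lower. Their median log2 ratio was 0.88, beside 10.3% of all genes higher and 8.71% lower.

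Homing genes differed from CD8 T cells in both directions. Ccr2, a receptor that brings leukocytes into inflamed tissue, was at 486, 423 and 301 CPM in libraries 1, 3 and 4 against 28.6 CPM in CD8 T cells, while Cxcr6 was at 4.34, 17.4 and 10.8 CPM against 152 CPM. Cxcr4, a receptor of lymphocyte retention and homing, was at 137, 284 and 201 CPM against 43.6 CPM. Of 14 compared trafficking genes 5 were at least 2-fold higher over all cells and 3 lower, with a median log2 ratio of 0.23. Among all genes 10.3% were higher and 8.71% lower.

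Transcription factors of the NK lineage were present in all libraries. Eomes, which separates NK cells from type 1 innate lymphoid cells (ILC1), was at 161, 348 and 203 CPM in libraries 1, 3 and 4 against 25.3 CPM in CD8 T cells, and 66.7%, 81.0% and 76.6% of the NK cells had a UMI. Tbx21 (T-bet) was at 113, 116 and 103 CPM against 48.0 CPM, Id2 at 980, 1154 and 1173 CPM against 456 CPM, and Irf8 at 1117, 899 and 1351 CPM against 308 CPM. Tox was at 65.1 and 92.8 CPM in libraries 1 and 3 and 22.2 CPM in library 4. The CD8 T cells of library 4 had 52.7 CPM of Tox, so it was over 2-fold lower in NK cells there (log2 ratio -1.25, -1.78 to -0.76). Of 15 factors compared, 5 were at least 2-fold higher over all cells and none lower, with a median of 0.64. Among all genes 10.3% were higher and 8.71% lower. For maturation, Cd27 (immature cells) was at 204, 243 and 122 CPM and Itgam (CD11b, mature cells) at 54.2, 5.80 and 55.7 CPM, and Emb was at 167, 452 and 535 CPM. The Itgam level in library 3 rested on 1 UMI (interval 0.147 to 32.3 CPM). Cma1, a protease gene of mature NK cells, was at 108 CPM in library 1, 17.4 CPM in library 3 and 22.8 CPM in library 4.

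Markers of ILC1 and tissue-resident NK cells were scarce apart from Itga1 and Tnfsf10. Itga1 (CD49a) was found in 52 of 200 cells, 26.0% (20.1% to 32.7%), and in 45.2%, 19.05% and 21.2% of the cells of libraries 1, 3 and 4, at 130, 69.6 and 36.1 CPM. Thinned to 1000 UMIs, the shares were 7.14%, 4.76% and 2.96%, on 3, 1 and 4 cells. Macrophages (at least 20 Lyz2 UMIs and no Cd3 or Cdh5 UMI), taken as cells that should have little Itga1, had a UMI in 14.6%, 10.7% and 16.5% of cells at 17.1, 10.9 and 15.1 CPM, and endothelial cells, which express it, had 528, 407 and 648 CPM. Among the 52 cells, 43 also had Eomes, 22 had at least 1 of the other ILC1 genes and 2 had at least 2 of them. Cells with Itga1 were deeper, at a median of 14269 UMIs against 8469 in the remainder. Tnfsf10 was found in 20.4% to 33.3% of the cells, while Cxcr6, Il7r, Cd200r1 and Zfp683 were each found in under 10% of the cells of every library. Its level of 32.5, 58.0 and 25.3 CPM in libraries 1, 3 and 4 stood beside 51.2, 28.5 and 25.6 CPM in the other kept cells. Tnfsf10 was thus above the other kept cells in library 3 only.

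Transcripts of dividing cells were found in some of the NK cells and had their highest level in library 4. Mki67, a gene of dividing cells, had a UMI in 9 of 42 cells in library 1 (21.4%, 10.3% to 36.8%), 1 of 21 in library 3 (4.76%, 0.120% to 23.8%) and 51 of 137 in library 4 (37.2%, 29.1% to 45.9%). Thinned to 1000 UMIs the shares were 2.38% (0.0603% to 12.6%), 4.76% (0.120% to 23.8%) and 14.1% (8.69% to 21.1%), on 1, 1 and 19 cells, too few in libraries 1 and 3 for an order of the shares. The CD8 T cells of library 4 had a share of 59.4%, or 16.9% (13.9% to 20.4%) thinned, which overlapped that of the NK cells, and its endothelial cells had 2.40%, or 0.441% thinned. In level, Mki67 was at 152, 52.2 and 292 CPM in libraries 1, 3 and 4 against 330 CPM in CD8 T cells, with 2 cells holding 75.7% of its UMIs in library 1 and 1 cell all 9 in library 3, and its log2 ratio to CD8 T cells within library 4 was -0.18 (-0.32 to -0.04). The 19 G2/M genes together made up 0.0820%, 0.0609% and 0.193% of UMIs, against 0.255% in the CD8 T cells of library 4, and the 19 S phase genes 0.0879%, 0.0968% and 0.141% against 0.221%. Within library 4, 2 of the G2/M genes and 4 of the S phase genes were at least 2-fold lower in NK cells and none higher. Of all genes there, 10.2% were at least 2-fold lower and 9.33% higher. The median log2 ratios were -0.44 for the G2/M genes and -0.76 for the S phase genes. Of 16 G2/M genes with at least 50 UMIs in NK cells 15 were highest in library 4, as were all 15 such S phase genes, beside 33.6% of all genes.

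Levels of effector genes were set side by side in cells with many and with few G2/M transcripts. In library 4, 13 cells had at least 0.5% of their UMIs from the G2/M genes, with 8 cells between 0.4% and 0.6%. Their level of Gzma was 14448 CPM (13991 to 14917) against 14480.0 CPM (14275 to 14687) in the other 124. Prf1 was at 1304 CPM (1169 to 1450) against 1489 CPM (1424 to 1557). Gzmb was at 4043 CPM (3802 to 4294) against 3547 CPM (3446 to 3650), and Gzmc at 886 CPM (775 to 1008) against 579 CPM (539 to 622). Single cells held much of both, as 1 of the 13 cells had 30.4% of their Gzmb UMIs and 1 had 47.6% of their Gzmc UMIs. With the highest cell of each set left out, Gzmb was at 3120 CPM (2898 to 3354) against 3348 CPM (3249.5 to 3449), so that its order turned. Gzmc was then at 515 CPM (427 to 615) against 457 CPM (420.5 to 495), with intervals that overlapped, and Gzma at 12838 CPM against 14018 CPM. Prf1 was then at 1037 CPM (911 to 1176) against 1434 CPM (1370 to 1501), with intervals that no longer overlapped. Ccl5 was lower in the 13 cells, at 1856 CPM (1695 to 2029) against 4548 CPM (4433 to 4664), and at 1205 CPM against 4266 CPM without the highest cell of each set. The cells with many G2/M transcripts were deeper, at a median of 20697 UMIs against 9282.

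**Figure D5:**
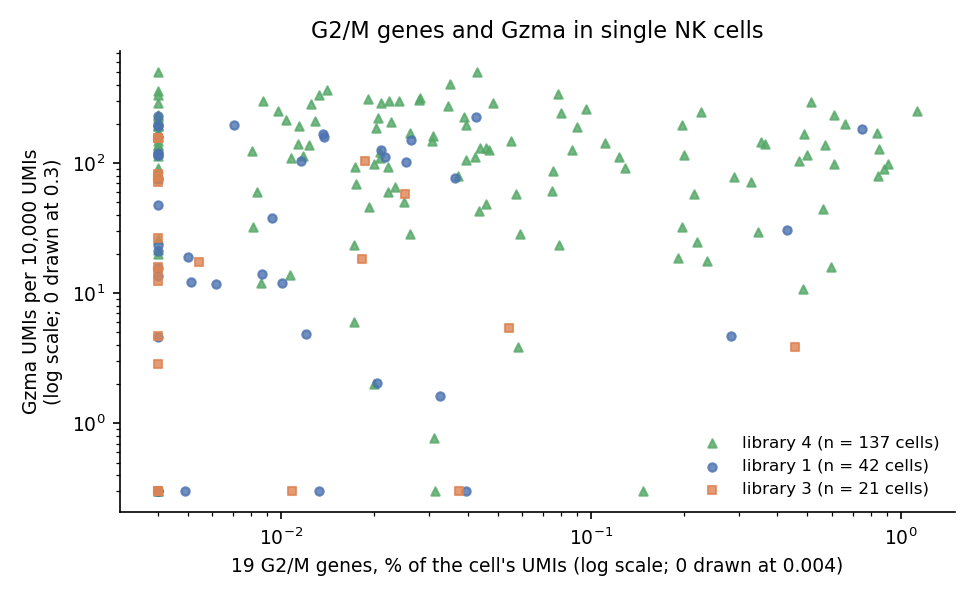
Gzma UMIs per 10000 UMIs (vertical axis) against the share of UMIs from 19 G2/M genes (horizontal axis) in each NK cell, both on log scales with zeros drawn at the lowest position, and with colour and shape for the library. The 13 cells of library 4 with at least 0.5% G2/M transcripts lie within the range of Gzma of the other cells of library 4.

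Over all genes, 803 of 5269 (15.2%) differed at least 2-fold between the highest and the lowest of libraries 1, 3 and 4 with 10 CPM added to both. The highest level was in library 1 for 31.4% of genes, in library 3 for 35.0% and in library 4 for 33.6%. Among the 15 genes that differed most and were at least 3-fold above the other kept cells of the same library, 8 are genes of cell division (Cdca3, Ube2c, Ccnb2, Cenpe, Cdkn3, Cenpf, Hmmr and Mki67), 1 is Lockd, a long non-coding RNA gene downstream of Cdkn1b, and 4 are effector genes (Ccl3, Ccl4, Gzmc and Gzma). The remaining pair rested on single cells: all 66 Ccl1 UMIs of library 3 were in 1 cell, and 105 of 106 Apod UMIs of library 4 were in 1 cell.

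Lists outside the NK program differed between libraries too, and the same sums in the other kept cells are given beside them. Of all genes, 31.4% were highest in library 1 and 33.6% in library 4. Immediate early genes, such as Fos and Egr1, were highest in library 1 for 8 of 9 genes and made up 0.679%, 0.373% and 0.303% of the NK cells' UMIs in libraries 1, 3 and 4; the other kept cells had 1.94%, 1.04% and 0.565%. In library 1 the 2 highest cells held 61.6% of the Fos UMIs. Interferon-response genes were highest in library 4 for 11 of 13 and made up 0.0894%, 0.0707% and 0.157%, with 0.309%, 0.181% and 0.657% in the other kept cells. Gbp2, an interferon-induced GTPase gene, was at 15.2, 29.0 and 217 CPM in the NK cells and at 1437 CPM in the other kept cells of library 4. Glycolysis genes were highest in library 4 for 12 of 14 and made up 0.424%, 0.398% and 0.642%, with 1.24% in the other kept cells of library 4, and their median log2 ratio to CD8 T cells was -0.86 over all cells, with 5 of 15 at least 2-fold lower in NK cells. Within library 4 the median was -0.75, with 2 of 15 at least 2-fold lower. The shares of all genes at least 2-fold lower were 8.71% over all cells and 10.2% within library 4. How much of these levels came from free RNA of other cells was not tested.

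Clustered on their own, the NK cells fell into 3 subclusters at resolutions 0.5 and 0.8 and into 5 at 1.2. The 3 subclusters at 0.8 are described, and they cannot be tested against each other because their genes formed them. The largest, of 101 cells, held 99 cells of library 4, and its leading genes (Cxcl2, Il1b, Plac8, Lyz2, Saa3 and Ms4a6d among them) are mostly myeloid transcripts. The second, of 64 cells, held 38 of the 42 cells of library 1 and 19 of the 21 of library 3, and was led by fibroblast transcripts (Dcn, Mgp, Bgn and Col3a1). The third, of 35 cells, was led by Pclaf, Rrm2, Nusap1, Birc5 and Top2a, genes of DNA replication and mitosis, and held 31 cells of library 4, 3 of library 1 and 1 of library 3. It was deeper, at a median of 20980.0 UMIs, and its Mki67 level was 681 CPM against 54.3 and 37.4 CPM in the others. The first 2 subclusters therefore followed the library. The third was led by cell cycle genes, and 31 of its 35 cells were in library 4, which held 137 of the 200 NK cells.

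Transcripts of other cell types were present in the NK cells, some of them in most cells of a library and some mainly in single cells. The 8 macrophage genes made up 0.00846%, 0.0209% and 0.0562% of UMIs in libraries 1, 3 and 4, against 0.281%, 0.497% and 1.11% in the other kept cells. The selection itself held Lyz2 under 10 UMIs in each NK cell; the 7 genes without Lyz2 made up 0.00651%, 0.0139% and 0.0285%, against 0.142%, 0.290% and 0.547%. Lyz2 was the most abundant of the 8 and was found in 130 of the 137 NK cells of library 4, at 277 CPM, while the endothelial cells of that library had 243 CPM. The 6 endothelial genes made up 0.0397%, 0.0557% and 0.0113%, against 0.993%, 0.910% and 0.0886% in the other kept cells, and the defining gene Cdh5 was at 0 by the selection. Fabp4, the most abundant of them, was at 265, 330 and 43.1 CPM and had a UMI in 88.1%, 95.2% and 35.8% of the NK cells of libraries 1, 3 and 4. The 5 fibroblast genes made up 0.550%, 0.0644% and 0.0717%. Dcn had a UMI in 76.2%, 57.1% and 16.1% of the NK cells, and a few cells held most of its UMIs: 4 NK cells had at least 10 Dcn UMIs, in library 1 the highest held 760 of 980 Dcn UMIs and in library 4 the highest held 294 of 317. The 6 cardiomyocyte genes made up 0.0505%, 0.00870% and 0.00171%, led by Myl2, and the 5 erythroid genes 0.0347%, 0.00754% and 0.00253%, led by Hbb-bs. B cell, dendritic cell and mast cell genes were at or near 0, with 6, 3 and 1 UMIs. Within library 4, where macrophage transcripts were highest, the complement genes C1qa and C1qb, which neither set was selected on, were at 71.5 and 104 CPM in NK cells and at 51.1 and 70.0 CPM in CD8 T cells. Simulated doublets marked 8 of the 200 NK cells, 5 in library 1 and 3 in library 4.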

How the data were processed

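Single-cell RNA-seq of 4 heart grafts was deposited as 1 merged table of UMI counts over 30905 genes and 53824 cells; the authors counted reads aligned to mm10 using Cell Ranger 3.0.0. The submitters' notes also name CASAVA 1.8 and Seurat.

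Cells with over 200 genes and under 20% mitochondrial UMIs were kept. Levels are UMIs summed over cells per 1000000 non-mitochondrial UMIs. A ratio was formed for genes with at least 50 UMIs over both sets, and a set at 0 was put at 3 UMIs. To compare shares across depths, each cell was thinned to 1000 UMIs. The selection itself removes no doublets; the 5% of cells in each library with most simulated doublets among their neighbours were marked and left out as an alternative. Subclusters used 1000 variable genes, 10 components, 15 neighbours and Leiden resolution 0.8.

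The cells and gene lists were chosen with earlier results of these data known. Named genes came from these lists, the 15 highest and 15 lowest ratios to CD8 T cells with 1 direction in libraries 3 and 4, the 15 largest differences between libraries, and the 10 leading genes of each subcluster. Of 273 listed names 271 matched; Bcl11b and Areg were not analysed here. Symbols on 2 rows, such as Itgam, were taken by identifier. Gene positions are from GENCODE M21 (GRCm38).

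The step that forms ratios and calls genes at 2-fold was tested on simulated counts with known folds. The software was scipy 1.17.1, scikit-learn 1.9.0, leidenalg 0.10.2, igraph 0.11.9, pandas 2.3.3, numpy 2.4.6 and matplotlib 3.10.9 under Python 3.11.15. Alternatives changed the limits on Ncr1, Cd3, Lyz2, mitochondrial UMIs and genes, the doublets, depth, libraries, count minimum, fold, comparison cells and scaling. Some results are not reported here.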

Additional observations from a re-analysis of the deposited data

How the results depend on the processing

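No paired analysis was possible because the barcode suffixes could not be tied to the numbered grafts, and the result comes from no test. Of 72 alternative values of the 5 main quantities 50 stayed close to the reported value (gene counts within 1.5 times it, shares within its 95% interval) and 22 moved. The NK share of kept cells, 0.448%, was 0.329% with at least 2 Ncr1 UMIs, 0.610% with up to 1 Cd3 UMI, 0.255% with Lyz2 under 3 UMIs, 0.525% with under 10% mitochondrial UMIs, and from 0.189% to 0.635% with 1 library left out. The 973 genes at least 2-fold higher than in CD8 T cells became 462 with Lyz2 under 3 UMIs, 138 at 1000 UMIs per cell, 1514 with at least 20 UMIs of a gene, 473 at 3-fold, 596 against all Cd3 cells, and 309 to 977 with 1 library left out. The 826 lower genes became 460, 232 and 308 with Lyz2 under 3 UMIs, at 1000 UMIs per cell and at 3-fold, and 131 to 887 with 1 library left out; fewer cells or UMIs leave fewer genes past the count minimum. The Mki67 share of 30.5% was 21.1% with Lyz2 under 3 UMIs, 10.1% at 1000 UMIs (a random draw separate from that of the library values) and 15.9% to 33.5% with 1 library left out. The Itga1 share of 26.0% was 4.55% in that draw and 20.9% to 36.5% with 1 library left out. Leaving out 1 library gave log2 ratios from -1.09 to 2.81 for Gzmb, from -3.81 to 0.54 for Ifng and from -1.57 to 4.01 for Xcl1, each turning positive without library 4, which held 537 of the 595 CD8 T cells. Leaving out cells with at least 10 Dcn UMIs or with under 2 of the 5 other NK genes was chosen after seeing the data, as were levels without the highest cell, lists without genes of the selection and higher Ptprc minimums. Library 3, with 21 cells, limits the precision of its values.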
